A study of Mus musculus with 9 samples.

Results

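Wild type peritoneal macrophages were described here on their own: 3 poly(A) RNA libraries (WT1, WT2 and WT3) of the 9 in the series, chosen by the genotype label. The other libraries carry Stat6 alleles altered at Ser807 and were not compared with them. The cells were drawn into the peritoneal cavity of WT mice by thioglycollate, cultured in DMEM (10% fetal bovine serum), and harvested once they had adhered for a short time. STAT6 itself was unedited, and the labels give no stimulus after collection. The strain, age and sex of the mice, and whether each library came from its own mouse, are not stated in the labels, so the spread between libraries may be technical. The study's title links phosphorylation of STAT6 at that serine to protection from senescence.

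Thioglycollate is a sterile irritant. It brings blood monocytes into the cavity, where over several days they become large macrophages full of vacuoles. Such cells take up debris, lipid and microbes, digest them in lysosomes, and carry receptors for antibody, complement and microbial products. The washed and adherent cells are a standard source of primary macrophages.

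The library totals were 24618608 counts in WT1, 17514211 in WT2 and 21468846 in WT3. Levels are given as CPM, each count divided by a library size that TMM scaled among these 3 libraries, and as TPM, which also divides by gene length. CPM serves to compare libraries and to show where reads fell, and levels of different genes were compared in TPM. Gene length was the union of annotated exons, and the length of the longest transcript was tried as well. Single values are given in the order WT1, WT2 and WT3, and means ± SD are over the 3 libraries. A gene was taken as expressed at 1 CPM or more in every library. A gene at 0 counts in a library could still lie at up to 3 counts, or 0.122 CPM in WT1, 0.171 in WT2 and 0.140 in WT3, and such limits cover counting error only. By this rule 11524 of 55401 gene IDs were expressed, 10542 of them protein-coding, which is 48.1% of the 21897 protein-coding genes. No count was seen in any library for 7076 protein-coding genes, or 32.3%. Over all protein-coding genes the median level was 0.774 TPM, and over the expressed ones it was 22.8 TPM, with the 99th percentile at 1092 TPM.

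Counts were concentrated in few genes. The 10 most abundant genes held 9.65%, 11.1% and 10.2% of the counts of WT1, WT2 and WT3, a mean of 10.3% ± 0.721 (SD, n = 3). The 100 most abundant held 25.9% ± 0.994, and 50% of the counts fell in 624, 552 and 598 genes. WT2 was the most concentrated library on each of these measures. At the other end, 3199 expressed genes lay between 1 and 10 CPM, 6252 between 10 and 100, 1970 between 100 and 1000, and 103 at 1000 or more.

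The cell type was checked first. All 5 genes given as markers of these cells were expressed. Gpnmb encodes a membrane glycoprotein of the late endosome and lysosome (ENSMUSG00000029816, mm10 chromosome 6, 49036546 to 49070929, forward strand). It drew the most reads of all genes, with 16813, 20742 and 17955 CPM in WT1, WT2 and WT3. Psap encodes prosaposin, the precursor of the saposins that help lysosomal enzymes break down sphingolipids (ENSMUSG00000004207, mm10 chromosome 10, 60277627 to 60302597, forward strand). Its levels were 18747, 21932 and 19774 TPM in WT1, WT2 and WT3. Lyz2 encodes the lysozyme of myeloid cells (ENSMUSG00000069516, mm10 chromosome 10, 117277331 to 117282321, reverse strand), and measured 24848, 32749 and 30520 TPM. Cd74, the invariant chain that escorts MHC class II molecules (ENSMUSG00000024610, mm10 chromosome 18, 60803848 to 60812652, forward strand), measured 11114, 11589 and 11451 TPM. Adgre1 encodes F4/80, the classical surface marker of mouse macrophages (ENSMUSG00000004730, mm10 chromosome 17, 57358691 to 57483527, forward strand), and measured 1785, 1797 and 1811 TPM. On the CPM scale all 5 were lowest in WT1 and highest in WT2, as were 35.4% and 38.6% of all expressed genes. All 14 macrophage core genes were expressed too, from Mertk, a receptor tyrosine kinase that recognises dying cells (52.2 ± 1.96 TPM), to Lyz2, and their summed level was 22594, 27971 and 25724 CPM.

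Markers of other cells were scarce, with 0 to 3 expressed members in each of the lists below. In a bulk sample a few cells of another type and a low level in every cell cannot be told apart. Of 12 neutrophil markers 1 was expressed: Csf3r, the receptor for granulocyte colony-stimulating factor, at 163, 182 and 186 CPM, while Ly6g and Retnlg had no count and S100a8 averaged 0.690 CPM. The list summed to 166, 186 and 189 CPM. Of 12 T and NK cell markers, Cd28, a costimulatory receptor, stood at 113, 98.03 and 118 CPM and Cd4 at 5.44 ± 0.638 CPM, while Cd3e, Cd3g, Cd8b1, Trac, Ncr1, Nkg7 and Gzma had no count. Red cell and platelet markers rested on Pf4, platelet factor 4, at 24.2, 26.1 and 30.7 CPM, and all 4 haemoglobin genes listed had no count. No B cell marker of 9 was expressed: Cd79b, a subunit of the B cell receptor, stood at 0.543 CPM, and Pax5 and Ighd had no count. No mast cell or basophil marker of 8 was expressed, and 6 of them had no count. Mesothelial and fibroblast markers (3 of 13 expressed) summed to 3.76, 4.59 and 5.62 CPM. Col1a2 stood at 1.55 ± 0.334 CPM and Pdgfrb at 1.47 ± 0.271, while Msln, Upk3b, Wt1 and Krt19 had no count. Eosinophil markers (3 of 8 expressed) summed to 33.2, 30.99 and 34.9 CPM. Siglecf stood at 22.3 ± 1.43 TPM and Ear2 at 26.9 ± 3.36 TPM, while Prg2 and Ear1 had no count. Dendritic cell markers (2 of 10 expressed) summed to 33.99, 40.1 and 35.03 CPM. Most of it was Batf3 at 32.5 ± 2.91 CPM, and Siglech and Klrd1 had no count. Endothelial and adipocyte markers (2 of 8 expressed) summed to 20.8, 25.4 and 24.3 CPM, with Kdr at 16.3 ± 1.34 CPM.

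**Figure D1:**
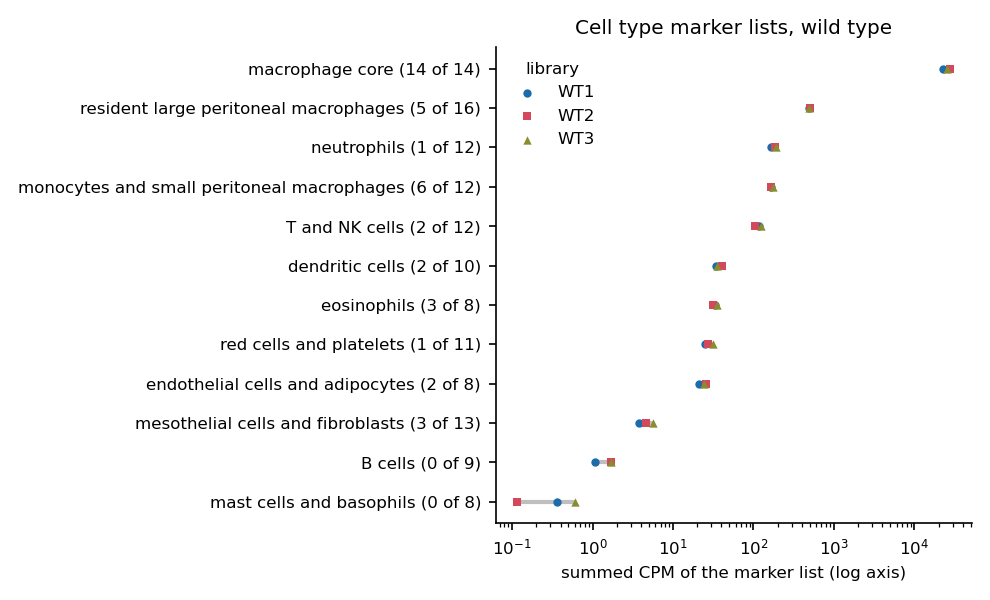
Summed CPM (log axis) of each cell type marker list, with 1 symbol per wild type library, a grey bar over the range, and the number of expressed members of each list in brackets. The macrophage core sits at 22594 CPM or more, and every list of other cells at 497 CPM or less.

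The program of resident large peritoneal macrophages was mostly missing. These cells depend on the transcription factor GATA6, and Gata6 had 0, 1 and 0 counts in WT1, WT2 and WT3. Timd4, a receptor for phosphatidylserine on resident cells, had 2, 1 and 5 counts, and Selp and Rarb had none. Of 16 genes on that list 5 were expressed: Cd93 (362 ± 4.89 CPM), F10 (89.8 ± 6.89), Fcna (22.04 ± 1.56), Thbs1 (11.6 ± 0.751) and Icam2 (5.79 ± 0.235). Of 12 genes of monocytes and small peritoneal macrophages 6 were expressed, or 50%, beside 48.1% of all protein-coding genes. This list summed to 166, 164 and 173 CPM, below the resident list at 490, 497 and 492 CPM. Chil3 (62.1 ± 8.94 TPM), Irf4, a factor of monocyte-derived small peritoneal macrophages (56.7 ± 1.63), and Fcgr4 (53.9 ± 1.07) lay above the median of expressed protein-coding genes. Ccr2, the receptor for the monocyte chemokine CCL2, measured 11.9, 7.72 and 10.4 TPM in WT1, WT2 and WT3, and Ly6c2 had 4, 1 and 0 counts. Xist, the RNA that coats the inactive X chromosome of female cells, was at 1011, 818 and 968 CPM, while the Y-linked genes Ddx3y, Kdm5d, Uty and Eif2s3y had no count in any library.

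Of all TPM, 8.29% fell on 40 lysosomal genes, 6.95% on 89 genes of cytosolic ribosomal proteins and 4.76% on 17 lipid-associated genes. Cytoskeletal genes held 2.57%, iron and heme genes 2.16%, and genes of MHC class I and class II presentation 1.75% and 1.67%. The lists differ in size and share some members. By TPM the order of protein-coding genes began with Lyz2 (29372 ± 4074), Psap (20151 ± 1626), Ctss (15698 ± 816) and Lgals3 (15304 ± 812). Ctss encodes cathepsin S, the protease that trims the invariant chain, and Lgals3 encodes galectin 3, a lectin long used as the Mac-2 antigen of elicited macrophages. Lyz2 lay above Psap in every pairing of libraries, and Psap above both others, whose own ranges overlapped. Cd74 came next, at 11385 ± 244 TPM. After it came 4 genes whose neighbours in the order overlapped: the elongation factor gene Eef1a1 (10538 ± 333), the ferritin chain genes Ftl1 (10478 ± 402) and Fth1 (9992 ± 1083), and Gpnmb (9530.2 ± 776). Within libraries Fth1 lay above Gpnmb each time, while the order of Eef1a1 and Ftl1, and of Ftl1 and Fth1, changed between libraries. B2m, the light chain of MHC class I, stood at 8250.3 ± 473 TPM. It was followed by Ctsb (cathepsin B, 7109.7 ± 111), Apoe (apolipoprotein E, 6807 ± 427), Tmsb4x (thymosin beta 4, 6298 ± 521) and C1qb (a chain of complement C1q, 6181 ± 243), each overlapping the next. Rplp1, a ribosomal protein, closed the 15 at 5257 ± 208 TPM. Past Lyz2 and Psap this order depends on the length used. The exons of Gpnmb cover 6514 bases in all but 3701 in the longest transcript, and with the latter it averaged 12773 TPM and its rank moved from 9 to 5. In the same way Fth1 moved from rank 8 to 4, Ctss from 3 to 6 and Cd74 from 5 to 9. Psap stayed second but overlapped Lgals3, and Rplp1 left the 15.

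**Figure D2:**
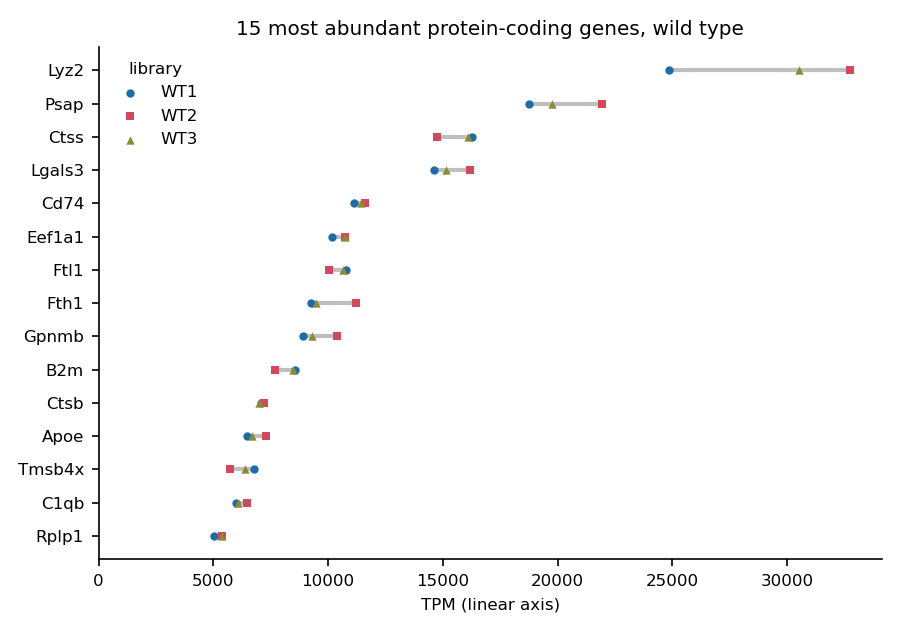
Level in TPM (linear axis) of the 15 protein-coding genes with the highest mean, with 1 symbol per wild type library and a grey bar over the range. With the union of exons as length, Lyz2 and Psap stand apart from all others, and from Eef1a1 down to Gpnmb each gene overlaps the next.

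A group of 40 genes for lysosomal proteases, hydrolases and membrane proteins was expressed in full, 40 of 40. Together they held 7.23% ± 0.26 of all counts, and their median was 582 TPM. Besides Psap, Ctss and Ctsb, the leading members were Cd68, a lysosomal membrane glycoprotein (4961 ± 457 TPM), Ctsz (4924 ± 676) and Ctsd (4915 ± 225), which encode cathepsins Z and D. The ranges of these 3 overlapped from each to the next. Grn, progranulin, measured 2857, 3357 and 2985 TPM, and Lamp1, the main lysosomal membrane protein, measured 2874, 3086 and 3042 TPM. Lgmn, the asparagine endopeptidase legumain, measured 2028, 2326 and 2139 TPM. All 3 genes lay above the 99th percentile of expressed protein-coding genes in each library. The acid lipase gene Lipa stood at 1108 ± 85.5 TPM and the cholesterol transporter gene Npc2 at 842 ± 15.5. Atp6v0d2, a proton pump subunit found in macrophages and osteoclasts, stood at 911 ± 108. The lowest members were Ctse (4.88 ± 0.344 TPM) and Ctsk (65.7 ± 5.82), cathepsins best known from other tissues.

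The promoters of lysosomal genes are known for a short palindrome, CACGTG, that transcription factors of the MiT family (TFEB, TFE3, MITF, TFEC) and the USF proteins recognise. PU.1, the myeloid master factor, recognises sites with the core GAGGAA, which reads TTCCTC on the other strand. The 250 bases before the RefSeq start sites (build GRCm38.p6) were searched for both. Of the lysosomal list 30 genes had windows, 35 in all. CACGTG lay in 8 of those 35 windows, 22.9%, against 6.02% of all 32851 windows and 8.6% of the windows of expressed protein-coding genes. The 8 genes were Atp6v1a, Ctsa, Ctsd, Ctsl, Gaa, Glb1, Lamp1 and Lgmn. GAGGAA or TTCCTC lay in 13 of the 35, 37.1%, against 23.3% of all windows. The 4 windows below were picked by hand from abundant genes of the list whose windows hold a match. Cd68 and Grn also had a window with GAGGAA or TTCCTC and are not shown. Among the 8 genes with CACGTG, those other than Lamp1 and Ctsd held it 1 time each. They run 5′ to 3′ on the strand of the gene, the last base lies just before the start site, and the matches are in capitals:
Lamp1, chr8:13158911-13159160, forward strand: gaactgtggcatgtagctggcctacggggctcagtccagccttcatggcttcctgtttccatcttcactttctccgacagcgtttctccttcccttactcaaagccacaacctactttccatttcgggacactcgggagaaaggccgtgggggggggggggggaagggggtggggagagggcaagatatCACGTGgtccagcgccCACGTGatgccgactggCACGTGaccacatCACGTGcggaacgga
Ctsd, chr7:142387828-142388077, reverse strand: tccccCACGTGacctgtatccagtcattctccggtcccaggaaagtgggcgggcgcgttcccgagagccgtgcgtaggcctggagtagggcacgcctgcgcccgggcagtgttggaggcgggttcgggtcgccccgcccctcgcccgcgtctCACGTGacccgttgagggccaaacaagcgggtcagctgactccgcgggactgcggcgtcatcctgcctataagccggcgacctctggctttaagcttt
Ctss, chr3:95526536-95526785, forward strand: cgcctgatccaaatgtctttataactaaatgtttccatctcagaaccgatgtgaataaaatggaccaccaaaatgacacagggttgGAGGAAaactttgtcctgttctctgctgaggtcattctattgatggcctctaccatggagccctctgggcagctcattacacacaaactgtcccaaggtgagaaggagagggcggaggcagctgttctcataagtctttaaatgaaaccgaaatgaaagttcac
Psap, chr10:60277378-60277627, forward strand: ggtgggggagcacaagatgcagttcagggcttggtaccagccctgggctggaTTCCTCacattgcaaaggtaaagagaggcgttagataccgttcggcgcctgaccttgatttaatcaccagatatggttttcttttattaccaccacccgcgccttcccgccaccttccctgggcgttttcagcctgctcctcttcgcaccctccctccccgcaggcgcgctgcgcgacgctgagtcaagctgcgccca

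Lamp1 held CACGTG 4 times, with first bases at -61, -45, -28 and -15, so that all 4 fell close to the start. In Ctsd the 2 matches began at -245 and -98. Ctss held GAGGAA at -164 and Psap TTCCTC at -198. A match only says that the letters are there, and the windows of Gpnmb and Lyz2 held neither motif. All 9 genes of the MiT and lysosomal transcription factor list were expressed. Usf2 stood at 117 ± 12.05 TPM, Mitf at 105 ± 12.2, Tfe3 at 78.2 ± 1.12, Tfeb at 74.1 ± 3.68 and Tfec at 29.1 ± 1.06. With the longest transcript as length Tfeb averaged 137 TPM, above Usf2 at 97.9. Each of them lay below Lamp1 and Ctsd in every library.

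Lipid handling genes were expressed nearly in full, and some of them, such as Ctsd, also belong to the lysosomal list. Of 17 genes known from lipid-associated macrophages, cells described in fat and in atherosclerotic plaques, 16 were expressed, with a median of 1030.2 TPM over the list and 4.62% ± 0.21 of all counts. Spp1, the secreted protein osteopontin, measured 1670.3, 1411 and 1609.9 TPM in WT1, WT2 and WT3. Lpl, lipoprotein lipase, measured 1528, 1067 and 1286 TPM, and Trem2, a lipid-sensing receptor, measured 742, 810.2 and 743 TPM. The tetraspanin gene Cd9 stood at 1398 ± 50.8 TPM, Cd63 at 1030.2 ± 10.1, the lipid droplet coat gene Plin2 at 819 ± 31.6, and the fatty acid binding proteins Fabp5 and Fabp4 at 383 ± 33.6 and 42.7 ± 2.03. The cholesterol exporters Abcg1 (221 ± 3.23) and Abca1 (55.6 ± 1.23) were expressed, while Apoc2 was not (0.0542 CPM).

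Antigen presentation was carried by a few strong genes. For MHC class II, 8 of 11 genes were expressed. H2-Ab1 (1861 ± 258 TPM) and H2-Eb1 (1628 ± 129) overlapped, and H2-Aa stood below them (1152 ± 60.4). With the longest transcript as length H2-Ab1 averaged 3002 TPM and lay apart from H2-Eb1 at 1444. Cd74 was several times as abundant as each. Ciita, the master activator of the class II genes, stood at 79.2 ± 2.36 TPM. The peptide editor genes H2-DMa (209 ± 15.05) and H2-DMb1 (412 ± 10.4) were expressed, and their partners of B cells, H2-Oa and H2-Ob, averaged 0.274 and 0.263 CPM. For class I all 14 genes were expressed, with H2-D1 at 3997 ± 169.8 TPM and H2-K1 at 1876 ± 61.04. Of the complement genes 7 of 19 were expressed, and the C1q chains led in the order C1qb, C1qc (2554 ± 135 TPM) and C1qa (1948 ± 76.5), with no overlap between them. C3 stood at 196 ± 22.5 TPM, and the terminal components C6, C7 and C8a had no count.

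Iron genes were led by the ferritin chains. Hmox1, which degrades heme, measured 583, 586 and 607 TPM in WT1, WT2 and WT3. Slc11a1, the phagosomal metal transporter, stood at 238 ± 10.1 TPM and the transferrin receptor gene Tfrc at 109 ± 12.03. Slc40a1, the iron exporter ferroportin, was low, at 6.59 ± 0.570, and so was the haemoglobin scavenger gene Cd163, at 6.51 ± 0.263.

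Receptors were covered by 14 lists written from knowledge of macrophages, with 241 distinct genes. Of these 159 were expressed, 66.0%, beside the 48.1% of all protein-coding genes given above, and 22 had no count. The lists were written for macrophages, so this share is a description and no comparison with other genes. Within each family the levels spanned several orders of magnitude, and usually 1 gene led.

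**Figure D3:**
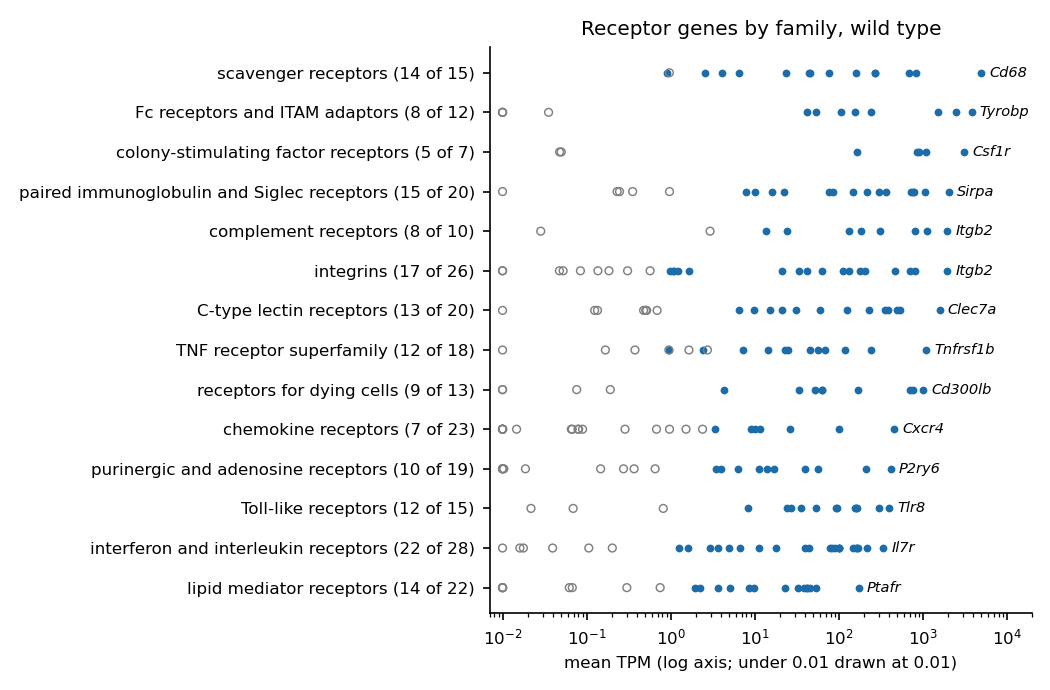
Mean TPM (log axis) of every gene of 14 receptor lists in the 3 wild type libraries. Filled circles are expressed genes and open circles are not, the leading gene is named, and expressed members are counted in brackets. In each list the leading gene lies at 174 TPM (Ptafr) or more, and members that are not expressed lie below 3 TPM.

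The adaptor genes of the list of Fc receptors and ITAM adaptors were more abundant than its receptor genes. Tyrobp (DAP12), the adaptor of TREM2 and related receptors, measured 3606, 4119 and 3733 TPM in WT1, WT2 and WT3 and Fcer1g, the gamma chain of activating Fc receptors, measured 2524, 2512 and 2495 TPM. Fcgr3, the low-affinity activating IgG receptor, measured 1467, 1534 and 1548 TPM. The inhibitory receptor gene Fcgr2b (242 ± 10.3 TPM), the neonatal receptor gene Fcgrt (159 ± 7.92), the high-affinity receptor gene Fcgr1 (108 ± 7.11) and Fcgr4 (53.9 ± 1.07) followed. None of the ranges of the first 5 overlapped. The IgE receptor chain Fcer1a and the polymeric Ig receptor Pigr had no count.

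Colony-stimulating factor receptors set the survival signals a macrophage can read. Csf1r, the receptor for CSF1, measured 2965, 3186 and 3105 TPM in WT1, WT2 and WT3. The GM-CSF receptor was present with Csf2ra (1088 ± 159 TPM) and Csf2rb (897 ± 17.96). Csf2rb2 (863 ± 4.82 TPM) encodes a separate, mouse-specific beta chain. It is closely related in sequence to Csf2rb, so that reads may be shared between Csf2rb and Csf2rb2. The progenitor receptors Kit and Flt3 had 4, 0 and 5 counts and 3, 0 and 3 counts. Of their ligands, Csf1 stood at 3.12 ± 0.701 CPM, and Csf2 and Csf3 had no count.

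Among microbial sensors 12 of 15 genes of the Toll-like receptor list were expressed, led by endosomal sensors of RNA. Tlr8 measured 419.8, 347 and 420.4 TPM in WT1, WT2 and WT3, Tlr13, which detects bacterial ribosomal RNA, measured 332, 261 and 303 TPM, and Tlr7, a sensor of single-stranded RNA, measured 187, 133 and 176 TPM. Tlr8 lay above Tlr13, and Tlr13 above Tlr7. Another member of the list overlapped Tlr7, and lay above Tlr7 with the longest transcript as length. The lipopolysaccharide receptor gene Tlr4 stood at 94.3 ± 14.9 TPM, with its coreceptors Cd14 at 155 ± 8.52 and Ly96 at 26.97 ± 3.41, and the lipopeptide receptor genes were Tlr1 (96.4 ± 3.25), Tlr2 (53.4 ± 0.405) and Tlr6 (24.1 ± 2.85). Tlr9, for unmethylated DNA, stood at 35.5 ± 3.27 and Tlr3, for double-stranded RNA, at 8.43 ± 1.005. Tlr5, the flagellin receptor, had 0, 0 and 2 counts, and Tlr12 and Tlr11 were not expressed.

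Lectin and scavenger receptors were led by a few strong genes. The C-type lectin list had 13 of 20 genes expressed and a median of 18.3 TPM. Clec7a, the beta-glucan receptor Dectin-1, measured 1745, 1377 and 1642 TPM in WT1, WT2 and WT3. The annotation used here lists this gene as a polymorphic pseudogene, so it is absent from counts of protein-coding genes. Mrc1, the mannose receptor, stood at 535 ± 36.01 TPM and Clec4a3 at 493 ± 51.8, while Clec4e, the receptor Mincle, stood at 6.49 ± 0.223. Of 15 scavenger receptor genes 14 were expressed: Cd36 measured 957, 717 and 857 TPM and Lrp1 644, 779 and 665 TPM, Stab1 stood at 269 ± 18.6 TPM, Msr1 at 162 ± 13.02 and Marco at 4.09 ± 0.799. Lrp1 had more reads than Cd36 (3676 against 899 CPM) but a much longer message, and their TPM ranges overlapped.

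Receptors that bind dying cells, complement and matrix came next. Cd300lb measured 990.2, 1044 and 989 TPM, Itgb5, a chain of the vitronectin receptor, 695, 744 and 709 TPM, and Axl, a receptor tyrosine kinase of the Mertk family, 170.2, 167 and 172 TPM. The third kinase of that family, Tyro3, averaged 0.143 CPM, and Havcr1 and Adgrb1 had no count. The integrin beta chain Itgb2 measured 1881, 2074 and 1922 TPM, and its partner Itgax (CD11c, 814 ± 19.6 TPM) was more abundant than its partner Itgam (CD11b, 132 ± 14.96 TPM), with no overlap. The anaphylatoxin receptor genes C3ar1 (1112 ± 57.1) and C5ar1 (307 ± 18.4) were expressed, and Vsig4, a complement receptor of resident macrophages, was not (1.30 ± 0.400 CPM). Sirpa, which receives the CD47 signal, measured 2046, 2071 and 2062 TPM and led the paired immunoglobulin receptors.

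Chemokine receptors had the lowest share of expressed genes among the 14 receptor lists, 7 of 23. Cxcr4, the receptor for CXCL12, measured 439, 461 and 465 TPM in WT1, WT2 and WT3. Ccr1 stood at 26.7 ± 2.97 TPM and Cx3cr1 stood at 3.34 ± 0.449. Ccr4, Ccr6, Ccr8, Ackr1 and Ackr3 had no count. Among cytokine receptors 22 of 28 were expressed. Il7r, the alpha chain of the interleukin-7 receptor, measured 376, 298 and 346 TPM and lay above Ifngr1 (217 ± 9.98 TPM). The interleukin-4 receptor genes that signal to STAT6 stood at 43.1, 46.6 and 45.2 TPM for Il4ra, 102, 96.2 and 106 TPM for Il2rg and 7.80, 5.37 and 6.80 TPM for Il13ra1, and Il2rg lay above Il4ra, and Il4ra above Il13ra1, in every library. Tnfrsf1b (TNF receptor 2) measured 1078, 1123 and 1127 TPM, above Tnfrsf1a at 243 ± 11.1 TPM.

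Receptors for nucleotides and lipid mediators were read last. P2ry6, the receptor for uridine diphosphate, measured 386, 447 and 414 TPM in WT1, WT2 and WT3, and the ATP-gated channels P2rx4 and P2rx7 stood at 214 ± 7.98 and 56.6 ± 1.68 TPM. Ptafr, the receptor for platelet-activating factor, measured 177, 171 and 172 TPM and S1pr2 stood at 53.6 ± 1.45 TPM. The formyl peptide receptor genes Fpr1 and Fpr2 averaged 0.117 and 0.288 CPM and were not expressed by the rule used here.

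Of 165 distinct genes on the transcription factor lists 105 were expressed, 63.6%, and 37 had no count. Cebpa and Spi1 (PU.1), which set the myeloid fate, measured 659, 663 and 626 TPM and 587, 625 and 579.7 TPM in WT1, WT2 and WT3. The order of these genes depends on the length used: with the longest transcript Cebpa averaged 496 TPM and Spi1 603. The length of Cebpa hardly differed (2636 and 2626 bases), while that of Spi1 went from 2695 to 2034. Zeb2 stood at 87.7 ± 6.89 TPM, Irf8 at 110.4 ± 2.61, Maf at 32.98 ± 2.73, and Spic, the factor of red pulp macrophages, at 1.11 ± 0.156. Sall1, the factor of microglia, had no count. A different gene led overall: Atf3, a stress-responsive factor of the ATF family, measured 1284, 1206 and 1198 TPM. Junb stood at 337 ± 21.6 TPM and Egr2 at 304 ± 6.50. Among other early genes, Jun averaged 192 TPM and Fos 108 TPM. Egr1, Fosb and Egr3 drew few reads, at 4.31 ± 0.427, 0.221 and 0.228 CPM. Of 15 genes known to respond to handling of cells 14 were expressed, with a median of 60.1 TPM.

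**Figure D4:**
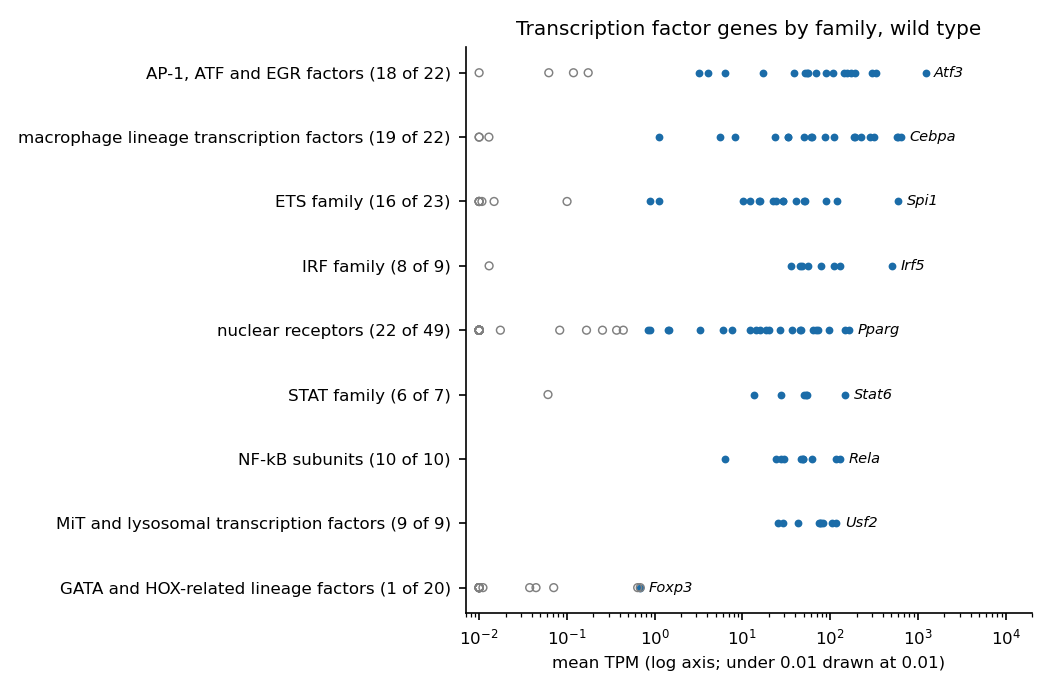
Mean TPM (log axis) of every gene of 9 transcription factor lists in the 3 wild type libraries. Filled circles are expressed genes and open circles are not, the leading gene is named, and expressed members are counted in brackets. Atf3 leads at 1229 TPM, and the GATA and HOX-related list stays below 1 TPM.

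Stat6, the gene altered in the other libraries of the series (ENSMUSG00000002147, mm10 chromosome 10, 127642986 to 127660957, forward strand), measured 155, 148 and 143 TPM in WT1, WT2 and WT3. It lay above Stat2 (53.9 ± 4.48 TPM) and Stat5b (53.1 ± 2.20), and above Stat3 (50.5 ± 0.799) and Stat5a (27.7 ± 1.55), with either length. Stat4 had 4, 0 and 1 counts. Irf5, a factor of inflammatory cytokine genes, measured 520.1, 485 and 521 TPM and lay above Irf1 (131 ± 2.88 TPM). All 10 genes of the NF-kB list were expressed, with Rela at 129.6 ± 2.08 TPM and the inhibitor gene Nfkbia at 118 ± 9.54.

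Nuclear receptors are ligand-activated factors, several of which sense lipids. Of 49, 22 were expressed, 44.9%, beside 48.1% of all protein-coding genes. No count was seen for 21 of the 49, and for 32.3% of all protein-coding genes. Pparg, the fatty acid sensor, measured 170.4, 159 and 167 TPM in WT1, WT2 and WT3. Nr1h2 (148 ± 8.07 TPM) and Nr1h3 (96.1 ± 8.23), the LXR genes for oxysterols, followed without overlap, then Rxra (72.5 ± 5.28), the shared partner. With the longest transcript as length Nr1h2 averaged 189.5 TPM and Pparg 175, and their ranges overlapped. Ppard stood at 18.5 ± 1.96 TPM and Ppara had no count. The glucocorticoid receptor gene Nr3c1 stood at 47.2 ± 4.99, and the vitamin D receptor gene Vdr at 0.876 ± 0.121. The progesterone receptor gene Pgr had no count.

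Secreted mediators were the least complete group, with 45 of 126 genes expressed, 35.7%. Ccl9, a chemokine of myeloid cells, measured 1154, 912 and 1079 TPM in WT1, WT2 and WT3. Cxcl16 stood at 269.8 ± 9.79 TPM, Ccl6 at 228 ± 23.99, Ccl3 at 75.6 ± 4.06 and Ccl4 at 48.1 ± 3.38, whereas Ccl2 averaged 1.58 ± 0.0541 CPM and Cxcl1 0.229 ± 0.108. Of 36 interleukins and interferons 5 were expressed and 19 had no count, among them Il6, Il12a, Il12b, Ifnb1 and Ifng. Il15 was the highest at 24.3, 20.5 and 27.04 TPM, followed by Il1rn, the interleukin-1 antagonist, at 8.93 ± 0.873 TPM. Il1b had 14, 15 and 8 counts. Growth factors were stronger: Igf1 measured 503, 393 and 465 TPM, Tgfb1 252, 269 and 252 TPM and Pdgfb stood at 127 ± 6.17 TPM. Tnf averaged 21.2 ± 1.52 TPM. Matrix proteases were led by Adam8 (1209.6 ± 53.5 TPM) and by Mmp12, the macrophage elastase (478 ± 89.5), while Mmp9 averaged 0.999 ± 0.395 CPM.

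The 2 textbook activation states were described by a list of effectors each. Of 16 genes tied to interleukin-4 and alternative activation 15 were expressed, with a median of 45.3 TPM. Retnla, which encodes the secreted protein RELM alpha, measured 1092, 1388 and 1311 TPM in WT1, WT2 and WT3, Arg1 (arginase 1) measured 72.3, 60.3 and 73.1 TPM and Chil3 (Ym1) 57.1, 56.8 and 72.4 TPM. Of 16 genes tied to interferon gamma and lipopolysaccharide 8 were expressed, with a median of 1.21 TPM. That is 50%, beside 48.1% of all protein-coding genes. Nos2, the inducible nitric oxide synthase, had 2, 3 and 3 counts, Ptgs2 averaged 1.85 ± 0.278 CPM and Cxcl9 0.156 ± 0.0659, and Irf1 was the highest. The lists were chosen with knowledge of the cells and hold genes of unlike abundance, so their medians describe these lists only. Of 15 interferon response genes 14 were expressed, from Bst2 (658 ± 30.4 TPM) and Ifi27l2a (489 ± 22.1) to Ifi44 (3.39 ± 0.518), and Cxcl10 was not. Of 26 proliferation genes 25 were expressed, most at low levels with a median of 9.07 TPM: Pcna, the sliding clamp of DNA replication, measured 565, 472 and 529 TPM, Mki67 17.9, 13.8 and 14.2 TPM and Top2a 13.98, 9.54 and 10.96 TPM. Ccnd2 had 1, 2 and 3 counts while Ccnd1 stood at 36.4 ± 4.06 TPM.

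Genes with no count included most members of several families. Of 1407 olfactory receptor genes 1336 had no count and 3 were expressed, among them Olfr111 at 27.9, 25.2 and 29.3 CPM. Of 331 vomeronasal receptor genes 315 had no count, as did 48 of 55 keratin genes, 28 of 39 Hox genes, 95 of 129 cytochrome P450 genes, 41 of 43 beta defensin genes and 342 of 348 immunoglobulin variable segments. Some zero or low values concern genes that every cell uses. All 37 mitochondrially encoded genes had no count, and the reason is not given in the sources used here. Their zeros are not read as absent expression, though they are included in the counts of undetected genes. Gapdh stood at 50.6, 53.3 and 57.9 TPM, and Aldoa, another enzyme of glycolysis, averaged 1566 TPM. The ribosomal protein genes Rpl24, Rps10 and Rpl13a averaged 1.46, 5.35 and 33.8 TPM, where the median ribosomal protein gene lay at 626 TPM. Gapdh and these ribosomal genes have many pseudogene copies, and how reads that map to several places were counted is not given in the sources used here, so their levels are uncertain. The same holds for Lyz1, the near-identical neighbour of Lyz2, at 1.80, 3.26 and 3.25 CPM.

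Outside protein-coding genes, the nuclear RNAs Neat1 (1531, 1529 and 1511 CPM) and Malat1 (1629, 1290.5 and 1464 CPM) drew many reads and were picked after their values were seen. LincRNAs as a class held 0.554% ± 0.0432 of counts. Gm23935, annotated as a miRNA gene of 57 bases, had 7383, 2701 and 4707 counts and therefore 17854, 8995 and 12943 TPM, more than most genes above. The order above was read over protein-coding genes and does not include it.

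The 3 libraries were close, yet their differences were larger than counting error for many genes. Across 11524 expressed genes the correlation of log2 CPM was 0.9928 for WT1 and WT2, 0.9965 for WT1 and WT3, and 0.9949 for WT2 and WT3. Genes differing by 2-fold or more numbered 38, 8 and 26 in these pairs. A chi-square test of each gene's counts against the library sizes called 4504 of 12616 genes, 35.7%, at a Benjamini-Hochberg adjusted p under 0.05. It compares these 3 libraries and no condition. The share called rose with the depth behind a gene, from 12.1% at 1 to 10 CPM to 40.0% at 10 to 100, 74.1% at 100 to 1000 and 96.1% at 1000 or more. The median coefficient of variation was 13.2%, 6.70%, 5.26% and 6.59% in these groups. The biological coefficient of variation (edgeR) was 7.54%. The test called 1401 genes without WT2, 2767 without WT1 and 4520 without WT3, and the coefficient was 4.38% without WT2, 6.998% without WT1 and 10.2% without WT3.

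WT3 lay between the other libraries for most of these genes. It was the middle library in 3441 of the 4504 genes (76.4%), and WT2 lay farthest from the others in 64.7%. WT1 was the highest library in 44.3% of the 4504 and WT2 in 43.2%, so both directions were about equally common. Among all expressed genes WT3 was the highest library in 23.4% and the lowest in 21.5%. Which of WT1 and WT2 was higher moved with base composition and, less so, with length. Expressed genes were split into 4 equal groups by GC content. In the group with the lowest GC content (median 41.9%), the median difference from the other libraries on the log2 scale was 0.15 for WT1, -0.21 for WT2 and 0.04 for WT3. In the group with the highest GC content (median 56.9%), it was -0.11, 0.13 and -0.03. In 4 groups by length, it went from -0.04 for the shortest to 0.05 for the longest genes in WT1, and from 0.04 to -0.07 in WT2. WT3 was the middle library in depth too, with WT1 the deepest and WT2 the shallowest library. The part of GC content in the spread was not tested, but with counts scaled within 20 bins of GC content 2353 of 12607 genes were called, 18.7%, and WT3 was the middle library in 67.8% of them.

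**Figure D5:**
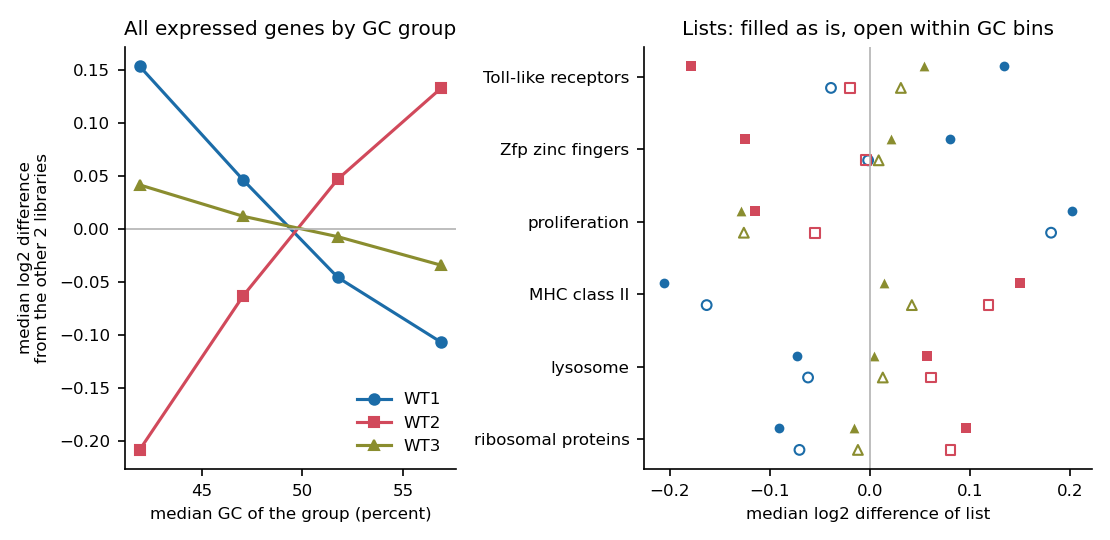
Left, the median log2 difference of each wild type library from the other 2 in 4 equal groups of expressed genes by GC content: WT1 runs from 0.15 to -0.11 and WT2 from -0.21 to 0.13. Right, the same median for 6 gene lists, filled as measured and open relative to genes of the same GC bin.

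Gene groups were described in the same way. Differences are given as list medians, on the log2 scale, of a library from the other 2, first as measured and then relative to genes of the same GC bin. For Toll-like receptor genes (median GC 44.4%) they were 0.13 in WT1 and -0.18 in WT2 as measured, and -0.04 and -0.02 by GC bin. For the 294 expressed Zfp zinc finger genes they were 0.08 and -0.12 as measured, and -0.0016 and -0.0034 by GC bin. In both groups the libraries thus lay closer together by GC bin. In others they lay farther apart. C-type lectin receptor genes lay at 0.0030 in WT1 and -0.06 in WT2 as measured, and at -0.11 and 0.12 by GC bin. In WT2 13 of 13 expressed members lay above the median of their bin, beside 5759 of all 11524 expressed genes. The same count was 5 of 12 for Toll-like receptor genes, 140 of 294 for Zfp genes and 6 of 7 for Ms4a genes. Genes of the Ms4a family lay at 0.02 and -0.11 as measured, and at -0.13 and 0.12 by GC bin.

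The next 5 groups kept the sign of their differences by GC bin. MHC class II genes lay at -0.21 in WT1 and 0.15 in WT2 as measured, and at -0.16 and 0.12 by GC bin, and all 8 expressed members were lowest in WT1, as were 35.4% of all expressed genes. H2-Ab1 measured 1209, 1679 and 1389 CPM, and H2-Aa 1195, 1362 and 1352 CPM. Proliferation genes lay at 0.20 in WT1, -0.11 in WT2 and -0.13 in WT3 as measured, and at 0.18, -0.05 and -0.13 by GC bin. WT1 was the highest library for 18 of the 25 expressed members, and for 38.0% of all expressed genes. Mki67 measured 52.1, 42.5 and 42.3 CPM and Kif11, a mitotic motor, 15.9, 9.94 and 11.8 CPM. Interferon response genes lay at -0.18 in WT2 as measured and -0.14 by GC bin. WT2 was the lowest library for 10 of the 14 expressed members, and for 43.1% of all expressed genes. Ifit1 measured 10.1, 6.80 and 9.06 CPM and Oasl2, an antiviral gene induced by interferon, 96.7, 82.7 and 98.2 CPM. Lysosomal genes lay at -0.07 in WT1 and 0.06 in WT2, and at -0.06 and 0.06 by GC bin. Ribosomal protein genes lay at -0.09 and 0.10, and at -0.07 and 0.08 by GC bin.

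Of the 12 protein-coding genes of at least 5 CPM with the widest range, 10 were lowest in WT2 and 7 highest in WT1. The widest was Gm21887, a predicted gene of 759 exonic bases and 69.7% GC, at 6.08, 20.6 and 5.20 CPM. Cd300ld3 measured 2.999, 8.20 and 5.57 CPM, and Vbp1, a prefoldin subunit of 35.5% GC, 21.5, 12.1 and 19.7 CPM. Among genes of at least 10 CPM, the ribosomal protein gene Rps29 lay farthest above in WT2 after Gm21887, at 196, 302 and 192 CPM, with Rps28 at 187, 270.3 and 193 CPM and the respiratory chain gene Ndufs7 at 70.02, 99.4 and 72.1 CPM. Timm23, a channel of mitochondrial protein import, stood out in WT3 at 30.03, 28.9 and 47.6 CPM. Dnajb4, a heat shock cochaperone, stood out in WT1 at 25.8, 16.2 and 19.3 CPM. The 4 genes farthest above the others in WT1 had 39.4% to 42.2% GC, and the 4 farthest above in WT2 had 49.1% to 69.7%. Stat6 measured 198, 199 and 187 CPM, so that its highest and lowest library differed by 1.07-fold (adjusted p of the chi-square test across all genes = 0.0163).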

How the data were processed

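Poly(A) RNA of 3 wild type libraries was analysed from a table of raw read counts per Ensembl gene, as deposited by the authors. Per the submitters' processing notes, HISAT2 2.1.0, featureCounts (no version given) and mm10 were used. Annotation release, strand setting and the treatment of reads mapping to several places were not given. GENCODE M21 supplied names, positions and exon lengths for 55141 of 55401 IDs.

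Libraries were scaled by TMM (edgeR 4.0.16, R 4.3.3) among themselves, giving CPM, and TPM used the union of exons. The chi-square test (Poisson, 2 degrees of freedom) covered 12616 genes passing filterByExpr (minimum count 10, minimum total 15). It was also run on simulated Poisson counts with 200 genes changed in 1 library. Such counts follow the model that the test assumes, so the run checked the computation only. Orders of genes were read from library ranges, since 3 values against 3 cannot give an exact p under 0.10. Ranges leave out that the genes compared were measured in the same libraries. Genes with overlapping ranges may therefore still keep their order in every library. DESeq2 1.42.0 size factors were an alternative. Named genes were the 5 markers and Stat6, the 15 highest by CPM and by TPM, the leading members of each list, and the genes with the widest spread. Other list members, absent genes and low genes that the text names were picked after their values were seen. Members and lists were chosen with earlier results of these data known. A few list members, though counted in their lists, are not reported here by name.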

Additional observations from a re-analysis of the deposited data

How the results depend on the processing

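The count of expressed genes (11524) stayed within 1.5 times under each alternative: 12528 at 0.5 CPM, 10625 at 2 CPM, 12549 at 1 TPM, 11543 with library totals, 11524 with DESeq2 size factors and 17030 with at least 1 count in every library. Leaving out 1 library gave 11608 to 11659 expressed genes, 33056 to 34137 undetected IDs and a share of 25.4% to 26.3% for the 100 most abundant genes. On the TPM scale that share was 35.3%. The chi-square test called 1401 to 4520 genes with 1 library left out, and 2353 with counts scaled within 20 GC bins, a correction chosen after seeing the data. The cause was not tested. The biological coefficient of variation ran from 4.38% to 10.2% with 1 library left out, and the median gene-wise estimate of DESeq2 corresponded to 4.59%. With the longest transcript as length, 14 of the 15 most abundant protein-coding genes stayed among the 15. The TPM of 114 of 169 named genes moved by more than its SD over the libraries, and 7 of the 169 rose by over 1.5 times, among them Nfkb1 (138 TPM against 62.3) and Lpl (2508 against 1294). Part of each move is a common factor, since TPM add up to a fixed total in each library. Lyz2, with 1316 bases by either length, fell to 0.762 times its value. So did B2m and Adgre1, whose lengths did not change either. The counts of 114 and 7 include this factor. Of 146 pairs of neighbours in the orders of levels whose ranges lay apart, 128 stayed apart with that length, 11 overlapped and 7 changed places. No paired analysis was possible because the libraries form 1 group and no test between groups was made. Groups of 3 libraries were not tested for outlying values.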
